A study of Homo sapiens with 4 samples.

Results

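The peak list of RPMI-8226 cells with knockdown of the m6A demethylase ALKBH5 held 3255 antibody-enriched sites without a counterpart in the control list, in genes that had other peaks there. They made up 13.2% of the 24626 peaks of the knockdown list, and peaks without a control counterpart in any gene made up 19.8%. Sites were chosen by the presence or absence of peaks in both lists: a site was taken when its blocks, the stretches of the peak that remain after splicing, had no base in common with a block of any control peak on either strand. Its Ensembl gene also had to be named in the control list. These sites are called knockdown-only sites here. The absence of a control peak is therefore a condition and not a result. The sites lay in 2682 genes, and they stood at 3127 distinct places, because some were listed more than once or under overlapping genes.

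RPMI-8226 is an established human multiple myeloma cell line. Cells received lentivirus with either the hairpin shNC or a hairpin against ALKBH5 (shALKBH5), and both groups were otherwise labelled alike. Each condition had 1 library of poly(A) RNA pulled down with an anti-m6A antibody and 1 input library, which makes 4 libraries and 1 peak list per condition. No value has a replicate, no test between conditions was possible, and sequencing depth is unknown because the tables hold no read counts.

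N6-methyladenosine (m6A) is the most common internal mark of messenger RNA. A complex around METTL3 and METTL14 writes it, ALKBH5 and FTO remove it, and YTH domain proteins read it. In most messenger RNAs the mark is dense near the stop codon and in the last exon. Antibodies against m6A also bind the related mark m6Am, which sits on the first transcribed base next to the cap when that base is an adenosine, so a peak at a gene start can hold either. Peak calls of this kind cannot tell these marks apart.

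Of the 10 knockdown-only sites with the lowest p, 8 lay at gene starts. The reference sequence around 9 gene starts shows where the listed edge of each site falls, which need not be exact to the base. The stretches run from 60 bases before the RefSeq gene start (GRCh38.p14) to 30 bases after it, 5′ to 3′ on the strand of the gene. Capitals mark bases inside the knockdown-only site. The first 6 are the strongest start sites with a sequence in the RefSeq table, and JUND, RPS6KA1 and FADD are start sites of signalling genes from the fixed lists.
IRAK1 (chrX:154019873-154019962, minus strand): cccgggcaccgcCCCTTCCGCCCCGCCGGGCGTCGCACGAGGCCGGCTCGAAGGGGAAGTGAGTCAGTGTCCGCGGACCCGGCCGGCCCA
KIAA2013 (chr1:11926398-11926487, minus strand): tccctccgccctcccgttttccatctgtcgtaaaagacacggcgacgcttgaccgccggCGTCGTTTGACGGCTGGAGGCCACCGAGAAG
KHSRP (chr19:6424782-6424871, minus strand): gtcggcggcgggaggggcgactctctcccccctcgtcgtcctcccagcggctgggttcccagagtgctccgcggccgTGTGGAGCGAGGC
SRM (chr1:11059989-11060078, minus strand): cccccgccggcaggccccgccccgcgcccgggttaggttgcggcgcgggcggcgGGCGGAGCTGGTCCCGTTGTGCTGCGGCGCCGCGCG
NUP210 (chr3:13420293-13420382, minus strand): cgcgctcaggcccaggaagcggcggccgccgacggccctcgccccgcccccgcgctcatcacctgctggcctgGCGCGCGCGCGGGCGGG
E2F2 (chr1:23531204-23531293, minus strand): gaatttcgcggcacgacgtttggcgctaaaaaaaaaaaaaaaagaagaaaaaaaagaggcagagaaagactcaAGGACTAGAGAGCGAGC
JUND (chr19:18281593-18281682, minus strand): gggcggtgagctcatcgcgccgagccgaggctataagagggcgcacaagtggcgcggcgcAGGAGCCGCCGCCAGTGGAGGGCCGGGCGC
RPS6KA1 (chr1:26529701-26529790, plus strand): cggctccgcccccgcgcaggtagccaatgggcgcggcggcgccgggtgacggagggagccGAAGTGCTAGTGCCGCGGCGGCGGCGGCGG
FADD (chr11:70203236-70203325, plus strand): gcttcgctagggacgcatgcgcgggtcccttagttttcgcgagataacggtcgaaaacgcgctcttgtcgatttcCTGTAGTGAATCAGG
At IRAK1 the site already covered 48 bases before the RefSeq start, and at JUND and RPS6KA1 its edge fell exactly on it. At KIAA2013 and SRM the edge lay 1 and 6 bases before the start. At KHSRP, FADD, NUP210 and E2F2 the edge lay 13 to 17 bases inside the transcript. The capital parts of IRAK1 and E2F2 each held GGAC, the core letters of the commonest m6A sequence context, once, and that of E2F2 also held GGACT. The other 7 capital parts held neither, which says only that these letters are not in these stretches.

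IRAK1, a kinase downstream of Toll-like and interleukin-1 receptors, had the knockdown-only site with the lowest p. It lay at chromosome X, 154019711 to 154019950, with 4.56-fold enrichment (log10 p -76.3), as the authors' deposited table gives it, read here as IP over input. The single shared IRAK1 peak, meaning a knockdown peak that overlaps a control peak, lay 7926 bases away toward the 3′ end. That shared peak had a fold of 4.09 (log10 p -218) with shALKBH5, and 3.11 and -128 with shNC. IRAK1 thus carried 1 common peak near the gene end and, in the shALKBH5 list, a further one across its start. All folds and p-values here are the authors' own and describe a peak within its list. A place without a control peak has no row in the shNC table, so it has no control fold, and this is not a fold of 0.

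The same arrangement recurred at other genes. KHSRP, an RNA-binding protein of AU-rich elements and splicing, had a start site with a fold of 3.03 (log10 p -49.4), 9588 bases from its nearest shared peak. E2F2, a cell cycle transcription factor, had one with a fold of 12.6 (log10 p -35), 14586 bases from its shared peak. SRM, the spermidine synthase gene, had a fold of 1.89 (log10 p -37) at its start, 4995 bases upstream of the shared peak. At NUP210, a nuclear pore gene, the gap reached 102844 bases, and the shared peak at its 3′ end had a log10 p of -1790 with shALKBH5 and -1330 with shNC. FAM89B and SSSCA1 were 1 place listed under 2 overlapping genes, with a log10 p of -45 in both. Only KIAA2013, among the 10 sites with the lowest p, had a gap under 300 bases: its start site, with a fold of 4.13 (log10 p -63.5), lay 148 bases from a shared peak. DDX5, an RNA helicase gene, had a site 529 bases past the RefSeq start, just outside the start window, with a fold of 2.02 (log10 p -57.7). All 10 sites with the lowest p lay 5′ of their nearest shared peak.

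**Figure D1:**
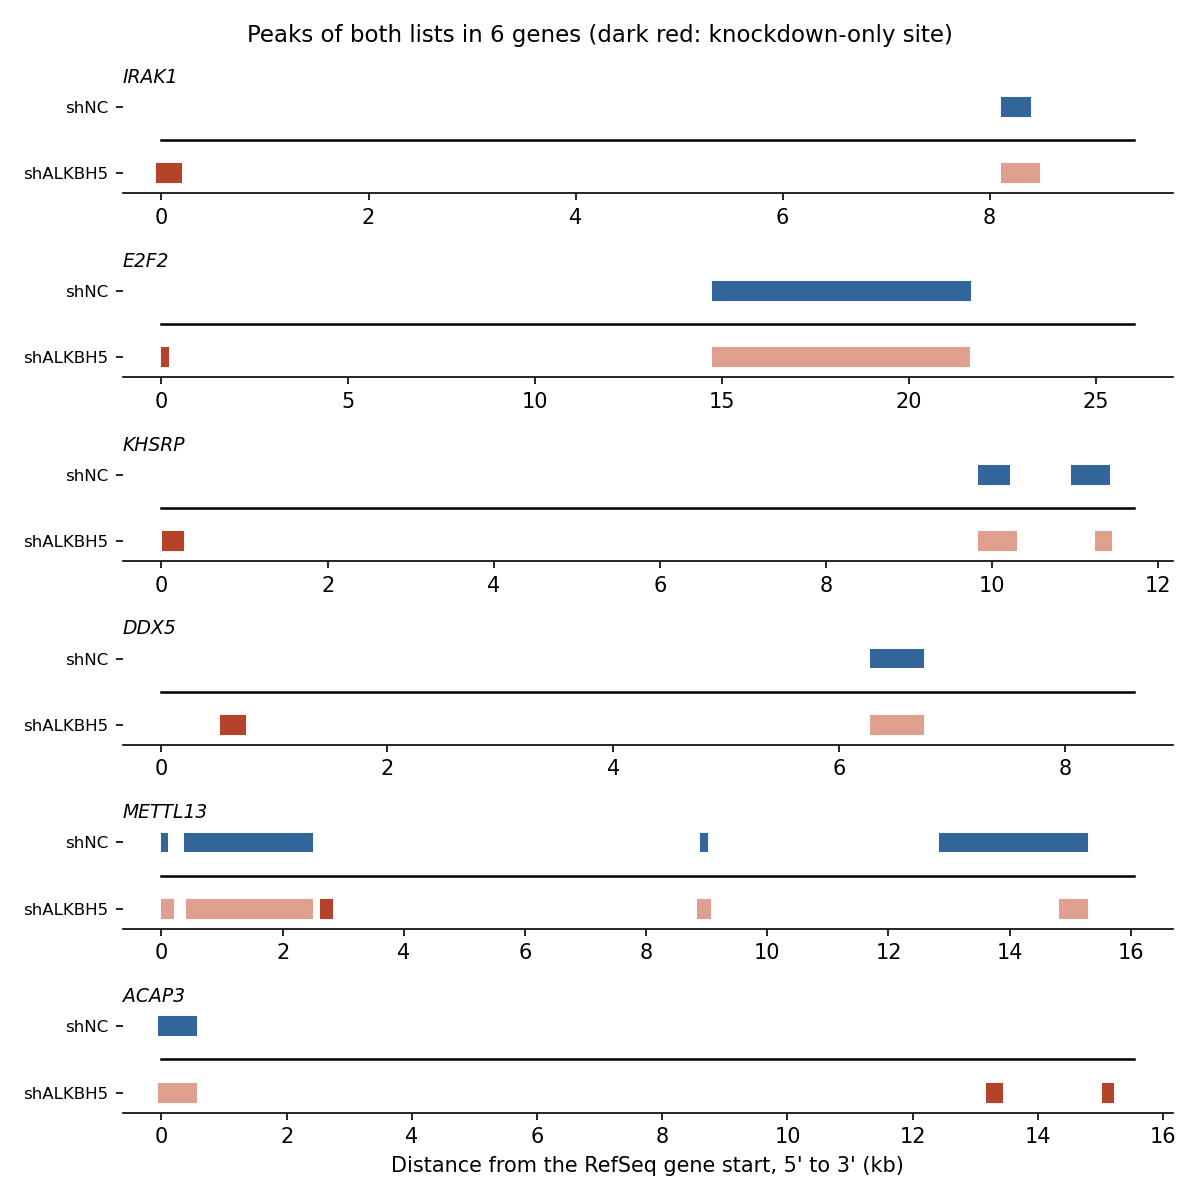
Peaks of the shNC list (blue) and the shALKBH5 list (light red, or dark red for knockdown-only sites) in 6 genes, drawn from outer edge to outer edge with introns included, against the distance from the RefSeq gene start in kb. In IRAK1, E2F2, KHSRP and DDX5 the dark red site lies at or near the start, far from the shared peaks; in METTL13 it follows a shared peak by 148 bases; in ACAP3 the shared peak is at the start and the sites are toward the end.

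Across all knockdown-only sites, the 5′ side predominated. Of the 3255 sites, 3072 were in a gene with at least 1 shared peak, and 183 sites in 165 genes were in genes with control peaks but without a shared one. Among the former, 1937 lay 5′ and 1133 lay 3′ of the nearest shared peak, a 5′ share of 63.1% (exact 95% interval 61.4 to 64.8%). The other 2 touched or overlapped a shared peak of their own list. Control-only sites, found in the same way with the lists exchanged, numbered 2130 in 1814 genes (9.49% of control peaks), and their 5′ share was 50.2% (48.0 to 52.5%, 976 against 967). These intervals do not overlap, but they cover only the counting of sites, which share 2 pairs of libraries and are not replicates.

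Relative to every shared peak of the gene, 1615 knockdown-only sites (52.6%, 50.8 to 54.4%) lay 5′ of all of them and 807 (26.3%) lay 3′ of all. The remaining 650 lay between shared peaks or touched one. Control-only sites split evenly by this measure, with 687 on the 5′ side of all shared peaks and 694 on the 3′ side. Knockdown-only sites of genes with a single shared peak had a 5′ share of 65.1% (62.4 to 67.7%), and those of genes with 2 or more had 61.6% (59.3 to 63.9%). The direction was thus the same in genes with few and with many shared peaks.

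The distances, which count introns, were wide. The median gap from a knockdown-only site to the nearest shared peak was 2068 bases, with the middle 50% between 359 and 14171 bases. For control-only sites the median was 1073 bases. The knockdown-only median was 3505 bases when control peaks less than 200 bases away also counted as partners. Within 300 bases of a shared peak, knockdown-only sites lay evenly on both sides, with 351 on each. From 300 to under 1000 bases the counts were 294 on the 5′ side and 270 on the 3′ side. They were 548 and 337 from 1000 to under 10000 bases. At 10000 bases or more, 744 sites lay 5′ and 175 lay 3′, a 5′ share of 81.0% (78.3 to 83.4%). Control-only sites at that distance had a 5′ share of 64.1% (59.3 to 68.6%). The 5′ excess of knockdown-only sites was therefore found at 1000 bases or more, and 404 of the 919 most distant sites were at gene starts. With gene starts set aside, the most distant sites still had a 5′ share of 66.7% (62.2 to 71.1%), against 55.4% (49.8 to 60.9%) for control-only sites.

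**Figure D2:**
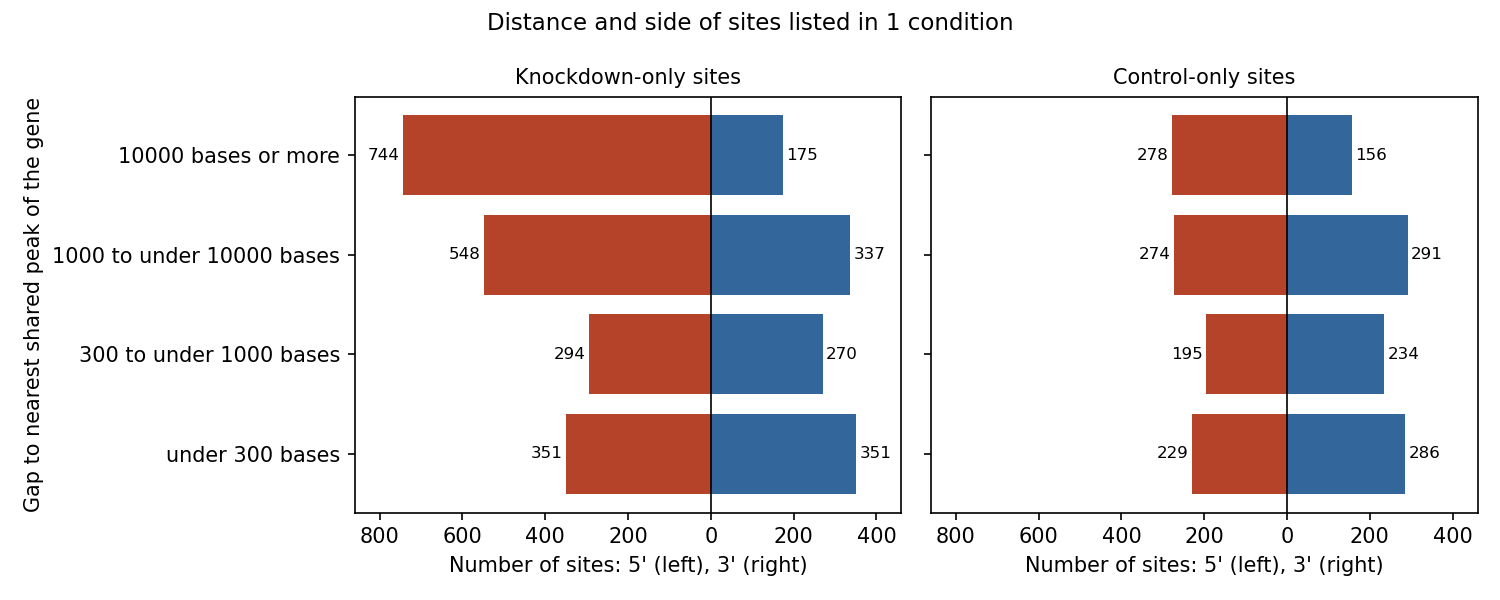
Number of knockdown-only sites (left panel) and control-only sites (right panel) 5′ (bars to the left) and 3′ (bars to the right) of the nearest shared peak of the gene, by the gap in bases. Knockdown-only sites are even below 300 bases (351 and 351) and lean to the 5′ side at 10000 bases or more (744 and 175).

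Most of the lean was at gene starts. A RefSeq gene span that the site overlaps was found for 2947 knockdown-only sites, and 773 of them (26.2%, 24.6 to 27.9%) had their 5′ edge upstream of the gene start or less than 500 bases past it. Gene bodies held 1777 sites (60.3%) and the last 1000 bases of genes 397 sites (13.5%, 12.3 to 14.8%). The start share was 10.5% for control-only sites (9.14 to 11.9%) and 11.5% for shared knockdown peaks. At gene ends the shares were 19.3% for control-only sites and 23.3% for shared peaks, so knockdown-only sites had the highest share at starts and the lowest at ends. Of the 738 start sites in genes with a shared peak, 718 lay 5′ of it, as their place makes nearly unavoidable. Outside the gene start, the 5′ share of knockdown-only sites was 52.0% (49.8 to 54.2%), against 45.7% for control-only sites (43.2 to 48.2%).

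RefSeq lists more than 1 start for some genes, and a site away from the first start can still lie at another. Among 2174 knockdown-only sites outside the gene start, 129 (5.93%, 4.98 to 7.01%) had their edge from 250 bases before to 500 bases after another start in the RefSeq promoter table. The share was 2.46% for control-only sites (1.78 to 3.31%) and 2.07% for shared peaks (1.85 to 2.31%). The table is not complete, so these shares are lower limits. With those sites set aside too, 49.7% of knockdown-only sites (47.4 to 51.9%) lay 5′ of the nearest shared peak. Control-only sites then numbered 690 on the 5′ side and 844 on the 3′ side. The median gaps of these remaining sites were 987 and 988 bases.

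With the gene span divided into 10 equal parts, knockdown-only sites had 2 maxima, with 29.5% in the first part and 26.3% in the last. Shared knockdown peaks had 11.5% in the first part and 39.7% in the last, and control-only sites 13.6% and 37.5%. From the second to the seventh part, knockdown-only sites held between 4.07% and 5.29% per part. Control-only sites held between 4.14% and 6.50% there, and shared peaks between 3.92% and 5.92%. The classes thus differed most in the first and last parts of the gene.

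**Figure D3:**
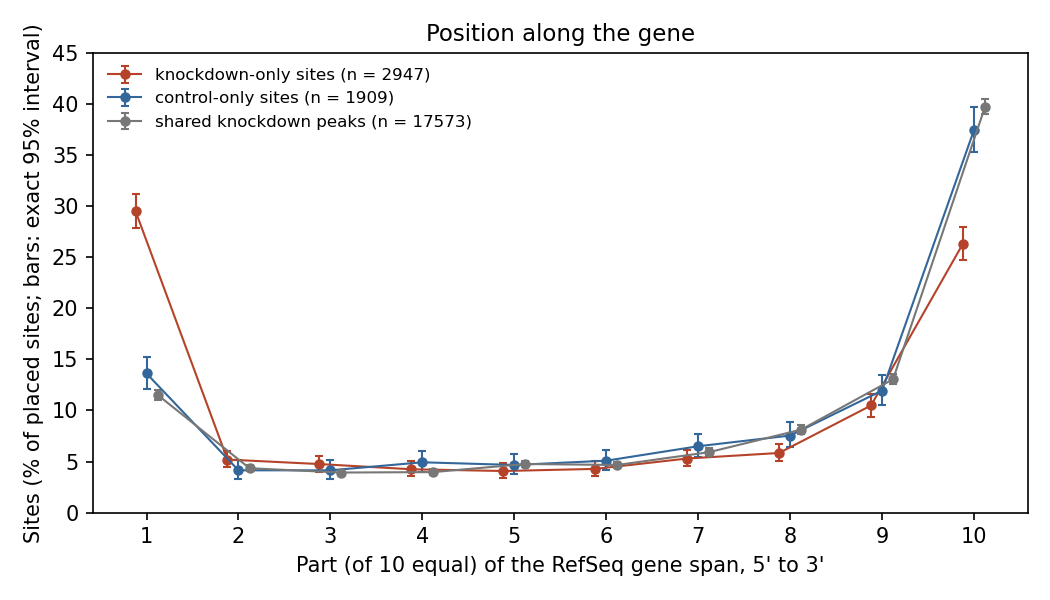
Share of placed sites (percent, with exact 95% binomial intervals over sites) in each of 10 equal parts of the RefSeq gene span from 5′ to 3′, for knockdown-only sites, control-only sites and shared knockdown peaks. Knockdown-only sites stand above both other classes in the first part (29.5%) and below them in the last (26.3%).

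The 773 start sites lay in 759 genes, and in 56 cases (7.24%) the gene also had a shared peak at its start. The control list had a start peak in the gene in 73 cases. Both counts are limited by the rule, because a start site may share no base with any control peak. They are therefore not a result about these genes. The nearest shared peak was in the gene body for 504 start sites and at the gene end for 162, and the median gap was 12581 bases. The median gap was 9887.5 bases for control-only start sites and 5615.5 bases for shared peaks at starts. The edge of the site lay within 50 bases of the RefSeq start in 430 cases (55.6%), before it in 305, and exactly on it in 30. Among all knockdown-only sites, some gaps to a shared peak recurred, such as 59 bases at 58 sites and 119 bases at 51. How edges were set is not known, so they need not be exact to the base. Whether reads of start sites come from the gene or from a divergent transcript cannot be told, since strand handling is not stated in the sources used here.

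The promoter sequences of these genes differed little from those of other genes with peaks. A RefSeq window of 250 bases before to 50 bases after the start was matched for 581 genes with a start site. The first transcribed base was an A in 49.6% (45.4 to 53.7%), against 49.1% (46.4 to 51.9%) for genes with a shared start peak. It was 46.5% (45.3 to 47.7%) for all matched genes of the knockdown list and 44.4% for all 35116 windows of the table. A C before that A was found in 37.5% (33.6 to 41.6%), 35.1%, 34.4% and 29.6% in the same order. GGAC stood in the first 50 transcribed bases, on the gene's strand, in 20.0% (16.8 to 23.5%) of genes with a start site, 20.9% with a shared start peak and 18.9% of all windows. GGACT, which contains GGAC, stood there in 4.13% of genes with a start site and 5.11% with a shared start peak. Over the whole window and both strands, GGACT was in 46.5%, 46.8% and 44.2%. TATAAA, searched on both strands before the start, was in 4.30% of genes with a start site, 5.04% with a shared start peak, 4.48% with a control-only start site, 5.05% of all matched genes of the knockdown list and 10.7% of all windows. The median G+C content of the windows was 67%, against 58.7% for all windows and 65.3% for all matched genes of the knockdown list.

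Sites of stronger p leaned further to the 5′ side. Among 314 knockdown-only sites with a log10 p below -10 and a shared peak in the gene, 70.1% (64.7 to 75.1%) lay 5′ of it. The share was 64.9% (61.7 to 67.9%) for values from -5 to -10 and 61.0% (58.7 to 63.2%) for weaker ones. Intervals of neighbouring classes overlapped, and those of the strongest and weakest classes did not. Control-only sites had 41.0% (32.0 to 50.5%, 117 sites), 48.2% (44.0 to 52.3%) and 52.0% (49.2 to 54.8%) in the same order. These values run the other way, but their intervals overlap. Shared knockdown peaks had 50.2%, 54.1% and 52.2%. Of the strong placed sites, 42.5% (37.0 to 48.2%, 134 of 315) were at gene starts in the knockdown list, against 2.65% (0.551 to 7.56%, 3 of 113) in the control list. Outside gene starts, the strong knockdown-only sites had a 5′ share of 48.6% (40.9 to 56.3%), and the strong control-only sites had 41.1% (31.7 to 51.0%).

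**Figure D4:**
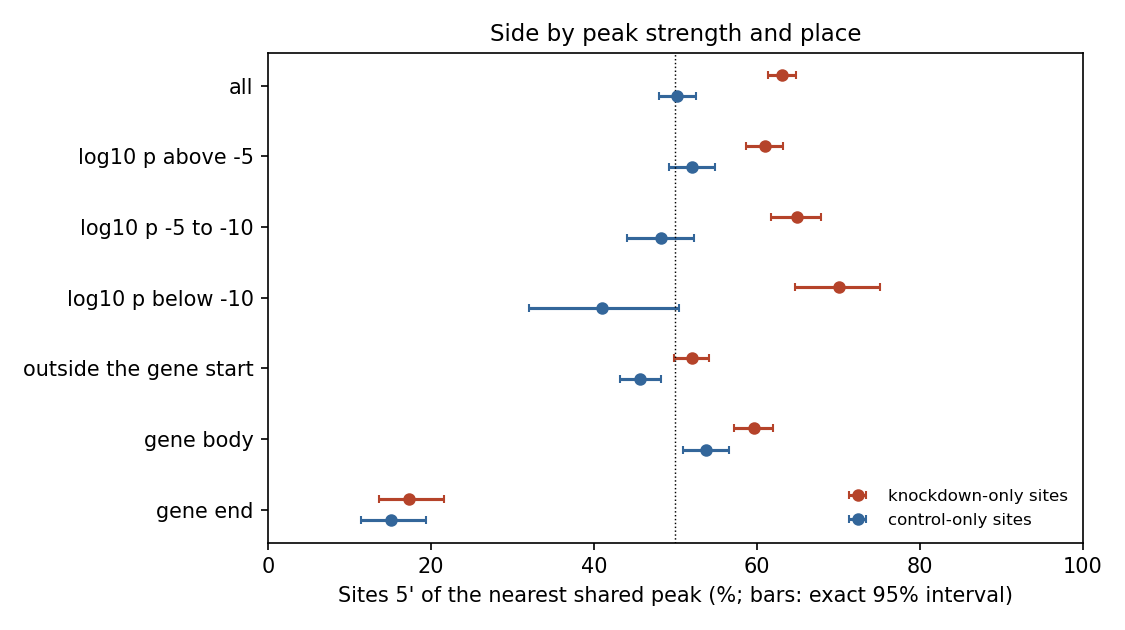
Share of sites 5′ of the nearest shared peak of the gene (percent, with exact 95% binomial intervals over sites) for knockdown-only and control-only sites, by the authors' log10 p and by place in the gene. With stronger p the knockdown-only share goes up from 61.0% to 70.1%, and the intervals of neighbouring classes overlap. The control-only share goes down from 52.0% to 41.0%, with overlapping intervals.

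Most knockdown-only sites were weak and short. Their median log10 p was -4.42 and their median fold 4.69, against -23.5 and 6.81 for shared knockdown peaks, and 3140 of them (96.5%) stood in the weaker 50% of the list by p. They covered a median of 150 bases, against 300 for shared peaks, and 14.5% crossed a splice junction, against 18.7%. Control-only sites were alike in median strength and length, with a median log10 p of -4.26, a median fold of 4.46 and 150 bases. Of them, 11.2% were spliced. The strong tails differed: a log10 p below -10 was found for 332 knockdown-only sites (10.2%) and for 120 control-only sites (5.63%). Knockdown-only peaks in genes without control peaks had a median log10 p of -4.08, a higher median fold of 8.19 and a median of 150 bases. In 2744 of 3072 cases (89.3%) the nearest shared peak had a stronger p, and in 1987 cases (64.7%) a higher fold. Start sites had a median log10 p of -5.34 and a median fold of 4.07. Body sites had -4.32 and 4.75, and end sites -4.46 and 4.04.

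The sites with the highest folds rested on few distinct values. OAZ1, which encodes an inhibitor of ornithine decarboxylase, had the highest fold, 48.9, at chromosome 19, 2272086 to 2272176, with a log10 p of -13.7. It had no shared peak, and its nearest control peak was 1253 bases away. GMPPA, a gene of GDP-mannose synthesis, MLLT10, a fusion partner gene in leukaemia, and RPS14, a ribosomal protein gene with possible retrocopies, all had a fold of 38. MLLT10 and RPS14 also had the same log10 p of -10.4. INO80B, a subunit of a chromatin remodelling complex, had 37.1, and KLF12 and FBXL22 both had 35.3 with a log10 p of -9.62. FBXL22 overlaps the antisense gene USP3-AS1, which held its nearest control peak, and reads of the pair cannot be told apart here. NIFK-AS1, an antisense RNA, had 33.5 and TRIOBP, an actin-binding protein gene, 32.6. Among the 343 sites with a fold of 15 or more, 311 (90.7%) had a pair of fold and log10 p that also occurred at another peak of the shALKBH5 list. Over knockdown-only sites of any fold, the commonest pair was 14.5 and -3.54, found at 78 sites. A ranking by fold therefore separates few of the sites with high folds. The share of repeated pairs over all peaks of the list is not given here, so repetition is not a trait of these sites alone.

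In gene bodies, the strongest sites after DDX5 lay beside a shared peak. METTL13, which encodes a lysine methyltransferase, had a site with a fold of 2.82 (log10 p -32.2), 148 bases 3′ of a shared peak. VOPP1 had one with 2.98 and -30.1, 208 bases 5′ of a shared peak. WDR82, a subunit of histone H3 lysine 4 methyltransferase complexes, had one with 3.23 and -29.4, 179 bases 3′ of a shared peak. MATN2, an extracellular matrix gene, was unlike these, with 2.2 and -29.2 at 104262 bases from the shared peak.

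The strongest sites at gene ends were on both sides. ACAP3, a regulator of ARF GTPases, had a fold of 2.21 (log10 p -32.7), with 14496 bases to a shared peak at the gene start. ACTL8 had 1.77 and -30.6, 383 bases 3′ of a shared peak whose log10 p was -4090. TKT, the transketolase gene, had 3.19 and -27.1, 449 bases 5′ of a weaker shared peak with a log10 p of -13.4. GIT1, another ARF regulator, had 2.04 and -24, and the zinc transporter gene SLC39A3 had 1.99 and -22.7. Their gaps were 629 and 209 bases.

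Most genes with a knockdown-only site had 1, as did 2217 of 2682, while 391 had 2, 55 had 3 and 19 had 4 or more. TTN, which encodes the giant muscle protein titin, had the most, with 11 sites beside 7 shared peaks. Their folds ran from 2.1 to 25.3 and their log10 p from -2.53 to -6.68, and 9 lay 5′ of the nearest shared peak. Except for the site closest to the gene start, the TTN sites lay between shared peaks of the gene. GPR135, an orphan receptor gene, had 6 listed sites at 3 places, each listed 2 times with ends equal or 1 base apart. SLC26A1, an anion transporter gene, and GARS-DT, a long noncoding RNA, had 5 sites each, and the DNA ligase gene LIG3 had 4. All 5 of the GARS-DT sites lay 5′ of the nearest shared peak, and of the SLC26A1 sites 2 did.

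The closest and the farthest sites show the range. MC1R, the melanocortin receptor gene, had a site that overlapped a shared peak of its own list without meeting a control peak. POLR2L, an RNA polymerase subunit gene, had a site 57 bases 5′ of a shared peak, and at WDR13, USP4 and DBH-AS1 the gap was 58 bases. AUTS2 had the farthest, a site at the gene start 1095885 bases 5′ of its nearest shared peak, with a fold of 12.7 (log10 p -3.03). RUNX1, a haematopoietic transcription factor gene, had a site at 692812 bases, which overlapped no RefSeq span of its gene. SLC9A9, ELMO1 and CALN1 followed with 581459, 573599 and 549097 bases, all 5′ of their nearest shared peak. The log10 p of these 5 ran from -2.18 to -4.06.

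At the limit of the rule, sites just inside it were close to a control peak. CNTF, JMJD4 and CDC42EP2 had gaps of 4, 12 and 14 bases to a control peak of any gene, with folds of 5.2, 2.67 and 6.64. Just outside it, UQCRFS1, TTYH3 and GDPD5 had peaks that shared 1 base with a control peak, with folds of 1.54, 5.13 and 4.28. In all, 223 knockdown-only sites (6.85%) lay less than 100 bases from a control peak and 741 (22.8%) lay 10000 bases or more from any.

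The fixed gene lists were read against 23.7%, the share of all 11318 genes with a control peak that held a knockdown-only site. Among genes with shared peaks, the share rose with their number, from 20.7% with 1 to 33.7% with 4 or more. The lists were not matched for this number. The lists have few genes, and the shares have no test. Over all placed knockdown-only sites, 26.2% were at gene starts. Of all knockdown-only sites in genes with a shared peak, 63.1% lay 5′ of the nearest one. In MAPK signalling, the kinase cascades that end in AP-1, 12 of 39 genes with a control peak held one (30.8%), and 8 of the 13 sites were at gene starts. JUND, an AP-1 subunit, had a start site with a fold of 2.95 (log10 p -23.9), 560 bases from a shared peak whose log10 p was -1930. RPS6KA1, a kinase activated by ERK, had 4.61 and -19 at 44223 bases. MAP3K3 had 4.16 and -8.86 at 70804 bases, and JUN had 2.9 and -8.66 at 119 bases. Of the 13 sites, 12 lay 5′ of the nearest shared peak. Control-only sites of this list numbered 5, in 4 genes, with 0 at starts. Over all genes with a knockdown peak, 15% held a control-only site, and 10.5% of placed control-only sites were at starts.

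Of the TNF receptor and NF-κB genes, 9 of 34 (26.5%) held a site, close to the share of all genes. Of the 9 sites, 3 were at starts, against 26.2% of all placed knockdown-only sites. Control-only sites of this list numbered 2. TAB3, an adaptor of the kinase TAK1, had one with a fold of 17.6 (log10 p -10), and the inhibitors NFKBIB and NFKBIE had start sites with folds of 9.05 and 1.74. RIPK1 had a body site with 6.79 and -4.96. TRAF1, an adaptor of TNF receptors, had 1 site near its end with a fold of 3.98, 119 bases 3′ of a shared peak. Among m6A writers, erasers and readers, 7 of 22 genes (31.8%) held a site and 5 of the 7 were at starts. The list had 4 control-only sites, with 0 at starts. FMR1, an RNA-binding protein gene, had a spliced start site with a fold of 4.45 (log10 p -9.83). The readers IGF2BP2 and YTHDF1 had 5.43 with -9.63 and 3.37 with -8.51, and HNRNPC had 1.98 with -6.58. ALKBH5 itself had 3 peaks in each list and 0 knockdown-only sites, and enrichment ratios are not expression, which left the knockdown itself unchecked here.

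Chromatin regulators had the highest share, with 17 of 39 genes (43.6%) and 20 sites, 4 of them at starts. The start share of all placed knockdown-only sites was 26.2%. ARID1B, a SWI/SNF subunit, had a spliced site with a fold of 2.93 (log10 p -24.3), 149 bases 3′ of a shared peak. CHD8 and SMARCA2, both chromatin remodellers, had 2.65 and 4.45, and the DNA methyltransferase gene DNMT1 had 6.33. This list also held 19 control-only sites, in 11 of its 38 genes with a knockdown peak. Over all genes with a knockdown peak, 15% held a control-only site. Of the splicing factors, 10 of 29 genes (34.5%) held a site, among them DDX5, HNRNPU (1.74 and -15.6 at its start), HNRNPL (2.47 and -13.8) and PTBP1 (1.31 and -11.5). These 10 genes held 12 sites. The list also had 9 control-only sites, in 8 of its 27 genes with a knockdown peak, against 15% of all such genes. In the unfolded protein response, 9 of 26 genes (34.6%) held 11 sites, 4 at starts. ATF4, a stress-response transcription factor, had a site with a fold of 1.25 (log10 p -12.6). DNAJB11 and PDIA6, genes of protein folding, had 13.6 and 4.83, and the stress sensor ATF6 had a start site with 2.37. This list held 1 control-only site.

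Shares below that of all genes were found for apoptosis (4 of 23, 17.4%), ribosomal proteins (2 of 14, 14.3%), proteasome subunits and plasma cell genes (both 3 of 23, 13.0%) and the cell cycle (2 of 20, 10%). In 3 of these lists control-only sites were the more numerous. Apoptosis had 8, with 2 at starts, in 6 of 23 genes with a knockdown peak, against 5 knockdown-only sites. Plasma cell genes had 6, in 4 of 24 such genes, against 3, and the cell cycle 3, in 2 of 22, against 2. The share over all genes with a knockdown peak was 15%. Ribosomal proteins had 1 control-only site against 2, and the proteasome 0 against 3. FADD, an adaptor of death receptors, had a start site with a fold of 2.51 (log10 p -14.1), BAX one with 11.8 and -9.21, and CFLAR, a caspase-8 inhibitor, had body sites with 3.67 and 6.18. In the proteasome, PSMD3 had a site with 3.77 and -16.9 and PSMA5 a start site with 2.9 and -14.1. The plasma cell genes were NSD2 (14.5 and -4.16), TENT5C (1.61 and -3.31) and MYC (1.29 and -10.5), with 0 sites at starts. The NSD2 site lay 29 bases from a control peak of NSD2. Of the control-only sites of this list, 1 was at a start. E2F2 and CDC25B (5.73) were the cell cycle genes, and RPL13A (1.17) and RPS14 the ribosomal ones. Among 10 housekeeping genes with a control peak, 4 (40%) held sites: TFRC, YWHAZ and TBP at starts, and ENO1. The list had 2 control-only sites. Reads of ribosomal and housekeeping genes may come from retrocopies.

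**Figure D5:**
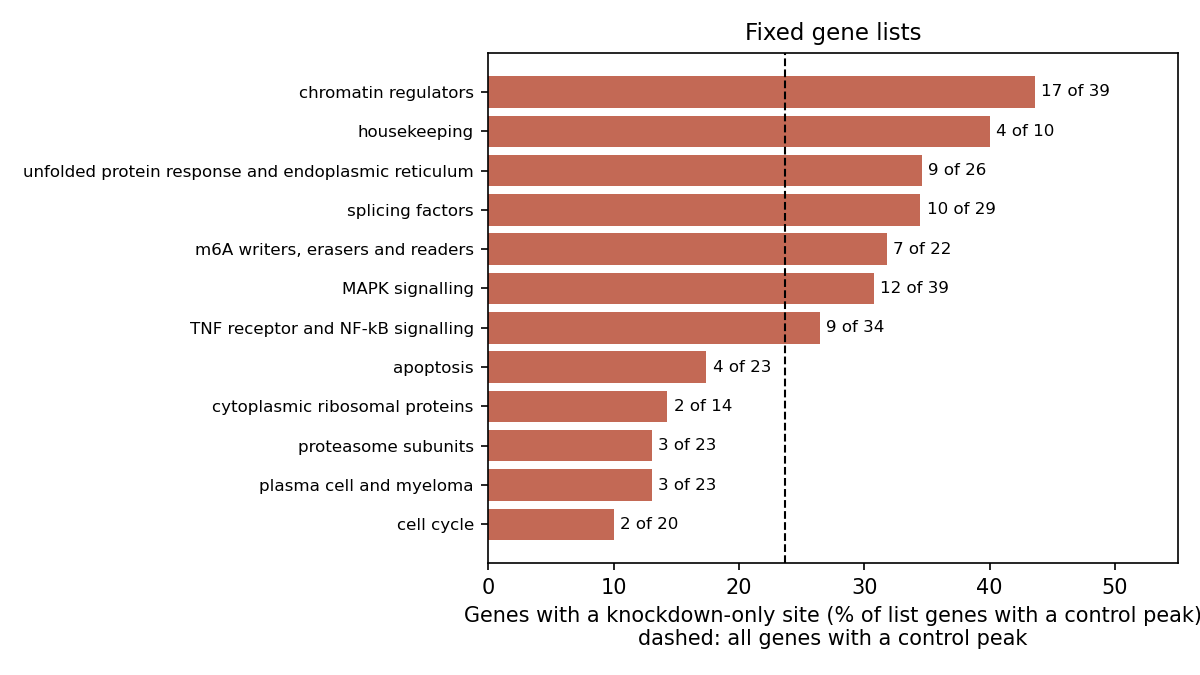
Percent of the genes with a control peak that hold a knockdown-only site, for the fixed lists with at least 10 such genes, with the counts beside each bar; the dashed line is the share over all genes with a control peak (23.7%). Chromatin regulators reach 17 of 39 and cell cycle genes 2 of 20.

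Of 8 plasma cell markers, 6 had peaks in each list. Of 5 T and NK cell markers 0 had a control peak and 1, CD8A, a knockdown peak, and of 5 myeloid markers 2, ITGAM and CD68, had peaks in each list. PDGFRB, 1 of 4 stromal markers, had a control peak alone. None of these markers held a knockdown-only site, and in the longer marker lists CD33 and PECAM1 did, with folds of 4.86 and 10.9.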

How the data were processed

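Each condition was represented by 1 anti-m6A and 1 input library of poly(A) RNA, and the authors deposited 1 peak list per condition. Build hg38 and the tools HOMER 4.9.1, BWA 0.7.12 and fastp 0.19.11 come from the submitters' processing notes, which assign them no steps. How peaks were called was not given in the sources used here. Per the file headers, the authors give a fold enrichment (a ratio) per peak, read here as IP over input because the headers do not name its parts. The deposited score column holds the p-value: its logarithm matched the log10 p column within rounding. The deposited log10 p was read as a score with no fixed range. Depth is unknown.

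Partners, gaps and sides were computed on blocks with SciPy 1.17.1, numpy 2.4.6 and pandas 2.3.3 (Python 3.11.15), and plots with matplotlib 3.10.9. Gaps are genomic and count introns. File starts count from 0 and are printed from 1. Places and sequences came from RefSeq (GRCh38.p14), matched by current or older symbol and chromosome where the site overlapped the gene. Intervals are exact (Clopper-Pearson) 95% intervals over sites and cover counting error only. On simulated data, 100% of 1000 planted sites were called rightly, and 100% of the 796 planted members had the right gap and side. Alternatives were same-strand partners, a window of 200 bases, a fold of at least 2 times the lowest, lists of equal length, sites overlapping no other peak, and other limits of start, end and reference peak.

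Members and gene lists were chosen with earlier results of these data known. Named sites, without pseudogenes, unnamed loci and immunoglobulin genes, were the 10 with the lowest p, the 10 with the highest fold, the 5 strongest per place, the 5 genes with most sites, the 5 closest and farthest, 3 on each side of the rule's limit and up to the 4 with the lowest p per list. A few sites that this rule names are not reported here. Others named were chosen after their values were seen. The planned motif count over peaks was not run because a genome sequence was not used here.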

Additional observations from a re-analysis of the deposited data

How the results depend on the processing

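The count of 3255 knockdown-only sites ranged from 2347, when the weakest knockdown peaks were dropped until both lists were equally long, to 3303 with partners required on the same strand. The 5′ share of sites relative to the nearest shared peak stayed between 62.1% and 65.2% under the other partner, list and overlap settings, and was 64.5% with the gene's strongest shared peak as reference. When control peaks less than 200 bases away also counted as partners, the median gap moved from 2068 to 3505 bases, the 5′ share to 65.2% and the start share to 28.2%. That setting removes the closest sites by construction. The start share was 29.1% with lists of equal length and 21.7% with a start window of 200 bases, and the end share was 8.18% with an end window of 500 bases. In alternatives added after the data were seen, the 5′ share was 52.0% outside gene starts and 70.1% at a log10 p below -10. Altogether 27 values stayed within the interval or 1.5 times of the main value and 8 moved. The 5′ share outside gene starts had an interval reaching 49.8%, and it was 49.7% with other listed starts set aside too and 48.6% for sites outside starts with a log10 p below -10. No paired analysis was possible because each condition has 1 peak list. Unknown depth limits every statement that a site is missing from a list.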
